A study of Mus musculus with 2 samples.

Results

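Family 2 vomeronasal receptors (Vmn2r genes) were followed in mouse nasal mucosa, 3 days after papain and 3 days after phosphate-buffered saline (PBS). A gene was a member when a probe set of the array carried its symbol alone and that symbol was Vmn2r followed by a number, which gave 109 members among 22180 named genes. Papain is a plant cysteine protease that serves as an allergen in airway models, and PBS is its vehicle. Both groups were C57BL/6 mice aged 4 to 6 weeks, for which the labels name no engineered allele, and each was read on 1 Affymetrix Mouse Gene 2.0 ST array hybridised with biotin-labelled cDNA made from total RNA. The design text describes combining 4 samples in a specimen and does not say how the 4 were divided. Each group is therefore 1 pool without a replicate. No difference below has a spread between animals, no test was possible, and treatment cannot be told apart from any other difference between the 2 pools. The number of arrays limits the precision.

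Family 2 receptors are class C G protein-coupled receptors with a large extracellular domain. They are made by sensory neurons in the basal layer of the vomeronasal organ, a blind tube at the base of the nasal septum that detects pheromones and other social cues. These neurons signal through the G protein subunit Gαo and the cation channel TRPC2, and many of their known ligands are peptides and proteins. A basal neuron typically makes 1 receptor of the large subfamilies together with a receptor of the small, broadly expressed subfamily C, Vmn2r1 to Vmn2r7.

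All signals are log2 values and all ratios are papain minus PBS. Background level denotes the median over 34 genes of unrelated tissues, and stood at 4.91 after papain and 5.07 after PBS. The 95 percentile of the same genes was 6.81 and 6.97, and is set by the few brightest of the 34. The highest of them, Odf1, read 10.48 and 10.91. Over all probe sets the median was 5.70 after papain and 5.64 after PBS. Probe sets differ in how strongly they bind, so the signal of one receptor says nothing of its abundance next to another receptor. Receptor paralogs also share sequence, which leaves the values of single members uncertain.

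The papain array had the higher signal for nearly the whole receptor family. A ratio here is one of array signals, and where the PBS signal is under background level it is no measure of the fold in transcript. Of the 109 members, 105 had a ratio above 0 and 86 were at least 2-fold higher, 78.9% of the family. Among all named genes 1.83% were at least 2-fold higher. A single member, Vmn2r71, was at least 2-fold lower, against 0.73% of all named genes, and the other 22 lay within 2-fold. The median log2 ratio of the members was 2.58, and that of all named genes was -0.03. Most PBS signals of the family lay under background level. With every signal under the PBS background level of 5.07 raised to it, the median over all 109 members was 0.92, 1.90-fold, 53 members were past 2-fold upward and 0 downward. A downward call then needs a PBS signal at least 2-fold over 5.07, which few members had. The 0 was thus largely fixed by the method.

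The shift was wide as well as common. Ratios ran from -1.22 to 5.62, with quartiles at 1.46 and 4.00. At 1.5-fold 94 members were higher, with 5.38% of all named genes past that threshold. At 3-fold the count was 78, with 0.924% of all named genes. The signal ratio was at least 8-fold in 47 members and in 0.406% of all named genes, and at least 16-fold in 28 members and in 0.212%. Over PBS background 21 members reached 8-fold. Members made up 51 of the 100 highest ratios on the array.

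**Figure D1:**
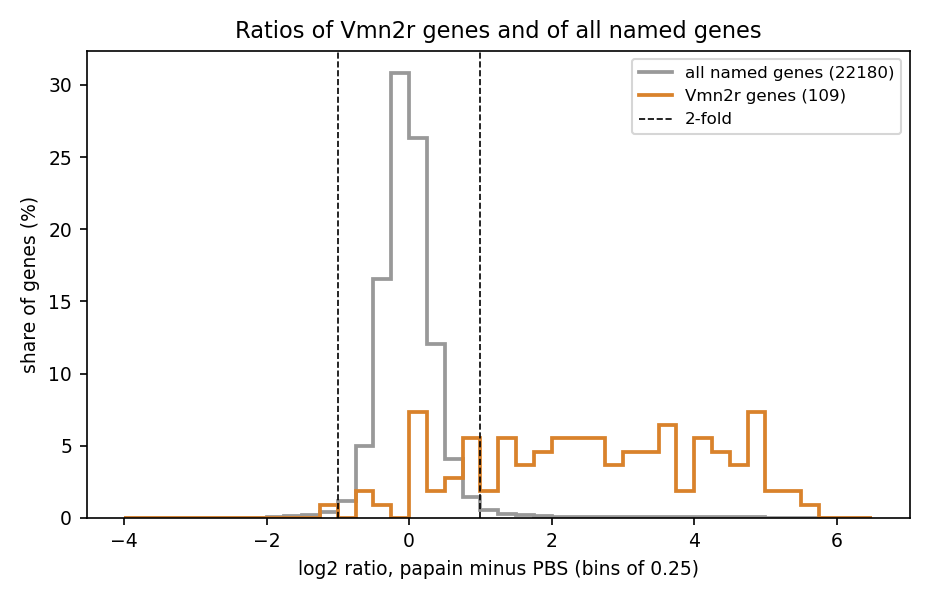
Share of genes (%) per bin of log2 ratio, papain minus PBS, for 109 Vmn2r genes and for all 22180 named genes, with dashed lines at 2-fold. The Vmn2r genes spread from -1.22 to 5.62 with a median of 2.58, while all named genes have a median of -0.03.

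In the PBS array most of the family lay under background level. PBS signals of the members ran from 1.99 to 6.44 with a median of 3.38, and 10 of 109, 9.17%, reached background level, against 71.6% of all named genes. Papain signals ran from 1.96 to 10.48 with a median of 6.12, and 75 of 109, 68.8%, reached background level, against 76.2% of all named genes. Past the stricter 95 percentile lay 43 members after papain and none after PBS. The papain signals of 48 members exceeded the highest PBS signal of any member.

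The 109 members thus fell into 3 sets: 10 at or above background level in both arrays, 65 in the papain array alone and 34 in neither. For the 65, the PBS signal gives no measured denominator. Their difference is stated below as at least the papain signal over the PBS background level of 5.07, which is smaller than the ratio of the array signals. By this measure 53 of the 109 members exceeded 2-fold, as did 0.938% of all named genes, and 21 exceeded 8-fold, as did 0.171% of all named genes. In the set of 34, 17 had signal ratios past 2-fold upward and 1 downward. Neither signal of these stood above unrelated genes, so they count among the signal ratios and in no count over PBS background.

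In 10 members both signals were at or above background level. These were Vmn2r29, Vmn2r32, Vmn2r33, Vmn2r35, Vmn2r45, Vmn2r54, Vmn2r55, Vmn2r58, Vmn2r89 and Vmn2r122, of which Vmn2r55 and Vmn2r58 were picked out only because they passed this limit. Of these 10, 6 were past 2-fold toward papain, and so were 0.64% of the 15628 named genes above background in both arrays. All 10 PBS signals lay under the 95 percentile of 6.97, within the range of unrelated genes, so these ratios too lack a firm denominator. Among them, Vmn2r29, Vmn2r32, Vmn2r33, Vmn2r35, Vmn2r45 and Vmn2r122 are also named by probe sets of several genes. Vmn2r122 read 10.14 after papain and 5.35 after PBS, a 27.7-fold difference. Vmn2r89 read 9.89 and 5.21, which is 25.6-fold. Vmn2r32 read 10.20 and 5.68, which is 23.0-fold. These 3 receptors stood far above the PBS value, whereas others in the set read nearly alike. On its own probe set Vmn2r29 read 6.22 and 6.18, a log2 ratio of 0.04. Probe sets that name Vmn2r29 together with other genes had ratios from 3.66 to 4.34, and their signal may come from those genes. Vmn2r54 read 5.70 and 5.63, a ratio of 0.08.

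**Figure D2:**
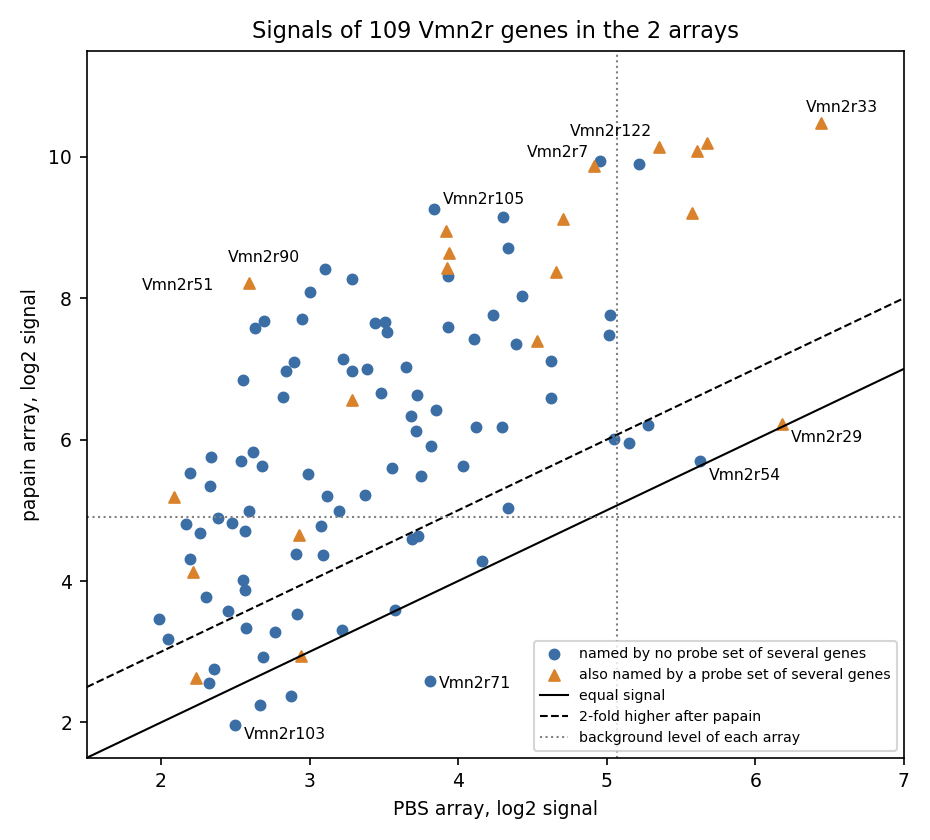
Log2 signal of each of the 109 Vmn2r genes in the PBS array (horizontal axis) and the papain array (vertical axis), with lines of equal signal and of 2-fold, and dotted lines at background level. Most points lie above the 2-fold line at PBS signals under 5.07, Vmn2r29 and Vmn2r54 lie on the line of equal signal, and Vmn2r71 lies below it.

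Subfamily C, whose members accompany other receptors in basal neurons, was higher in most members. Of the 7, 6 had signal ratios past 2-fold, as did 78.9% of the whole family and 1.83% of all named genes. The median of the 7 was 4.00. Over PBS background 5 were at least 2-fold higher, as were 53 of all 109 members and 0.938% of all named genes. Vmn2r7 read 9.88 after papain and 4.91 after PBS, at least 28.1-fold over PBS background. Vmn2r6 read 8.64 and 3.94, at least 11.9-fold. A probe set that names Vmn2r6, Vmn2r7 and a pseudogene together read 6.55 and 4.03, so the signals of these receptors may not be separate. Vmn2r4 read 8.0854 and 3.0015, at least 8.11-fold, with the highest array ratio of the 7, 5.08. Vmn2r1 and Vmn2r2 went the same way. Vmn2r1 read 8.03 and 4.43, at least 7.81-fold. Vmn2r2 read 7.53 and 3.52, at least 5.50-fold. The remaining pair stayed under background level in both arrays. Vmn2r5 read 4.89 and 2.38, and Vmn2r3 read 4.64 and 3.73.

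Of 6 receptors tied to a ligand or a behaviour in the literature, some stood well above background after papain and others did not. Vmn2r115 and Vmn2r116 are the receptors of the tear peptides ESP22 and ESP1, a juvenile signal and a male pheromone. Vmn2r115 read 7.71 after papain and 2.95 after PBS, at least 6.26-fold over PBS background. Vmn2r116 read 5.75 and 2.34, at least 1.60-fold. Vmn2r88 and Vmn2r65 respond to cues of pups that drive attacks by virgin males. Vmn2r88 read 7.65 and 3.44, at least 5.98-fold, and Vmn2r65 read 7.77 and 4.23, at least 6.49-fold. The last pair was dim in both arrays. Vmn2r53, which has been linked to aggression between males, read 5.21 and 3.12, only slightly above background after papain. Vmn2r26, a receptor for peptide ligands of class I histocompatibility molecules, read 4.77 and 3.08 and stayed under background.

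Vmn2r genes lie in tandem clusters, and the difference between the arrays varied by cluster. Neighbours were joined when the starts of consecutive members lay within 1 Mb of each other in RefSeq (assembly GRCm38.p6), which gave 18 neighbourhoods, 13 of them with 2 or more members. All 109 members matched RefSeq by gene ID under the same symbol. The median ratio of the 13 larger neighbourhoods ran from 0.24 to 4.44.

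The counts below are of signal ratios, each with the count over PBS background beside it. The cluster from Vmn2r29 to Vmn2r52 had 11 of 12 members past 2-fold, 9 of them over PBS background, and a median ratio of 4.23. Vmn2r33, with the highest signals of the family in both arrays, read 10.48 after papain and 6.44 after PBS, a 16.5-fold difference. Vmn2r45 read 10.09 and 5.61, which is 22.3-fold. Vmn2r35 read 9.20 and 5.58, which is 12.3-fold. Others of the cluster were under background after PBS. Vmn2r37 read 8.96 and 3.92, at least 14.8-fold, and Vmn2r51 read 8.21 and 2.59, at least 8.86-fold. Its array ratio of 5.62 was the highest of all members, but it rests on a PBS signal under background, and Vmn2r129 and Vmn2r7 had larger bounds of at least 29.3-fold and 28.1-fold. Vmn2r29, with a ratio of 0.04, belongs here too. Of its 12 members, 11 are also named by further probe sets that list several genes at once, so a signal here may come from a neighbour.

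Other clusters were higher across all or most of their members. In the cluster from Vmn2r111 to Vmn2r117, which holds the ESP receptors, all 7 had signal ratios past 2-fold and 5 were so over PBS background, from Vmn2r112 at 2.42 to Vmn2r115 at 4.76. The 4 members from Vmn2r80 to Vmn2r83 all had signal ratios past 2-fold, 3 of them over PBS background, from Vmn2r80 at 1.30 to Vmn2r81 at 4.37. Both members of the pair Vmn2r88 and Vmn2r89 were higher, with ratios of 4.20 and 4.68. Single or paired genes followed the same direction. Vmn2r129 read 9.94 after papain and 4.95 after PBS, at least 29.3-fold. Vmn2r125, annotated as a pseudogene in RefSeq, read 6.56 and 3.28. Vmn2r28, Vmn2r120, Vmn2r18 and Vmn2r118, each without a neighbour measured within 1 Mb, had ratios of 4.29, 2.10, 2.06 and 1.88.

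Large clusters were mixed. Of 15 members from Vmn2r65 to Vmn2r79, 12 had signal ratios past 2-fold upward, 9 of them over PBS background, and 1 downward. Vmn2r69 read 7.68 after papain and 2.69 after PBS, at least 6.14-fold, and Vmn2r73 read 7.58 and 2.64, at least 5.69-fold. Vmn2r71, in the same cluster, was the single member past 2-fold downward, at 2.59 against 3.81, both under background. Of 21 members from Vmn2r90 to Vmn2r110, 17 had signal ratios past 2-fold, with a median of 1.79, and only 5 were at least 2-fold over PBS background. Vmn2r105 read 9.27 and 3.84, at least 18.4-fold, and Vmn2r90 read 8.42 and 3.10, at least 10.2-fold. Vmn2r103, at 1.96 and 2.50, and Vmn2r97, at 2.37 and 2.88, were under background in both arrays and had the lowest ratios of this cluster. Of 10 members from Vmn2r8 to Vmn2r17, 7 were past 2-fold and 4 over PBS background, Vmn2r8 among them at 9.15 and 4.30, which is at least 16.9-fold. Of 8 members from Vmn2r57 to Vmn2r126, 5 were past 2-fold and 4 over PBS background, from Vmn2r60 at 0.69 to Vmn2r62 at 3.32. Of 8 from Vmn2r19 to Vmn2r27, 6 were past 2-fold and 1 over PBS background, from Vmn2r19 at -0.42 to Vmn2r22 at 3.10.

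In a pair of small clusters most signal ratios were within 2-fold. From Vmn2r84 to Vmn2r87, 1 of 4 members was past 2-fold, the median ratio was 0.24, and none reached background level in either array. Vmn2r85 read 2.95 and 2.94, and Vmn2r86 read 4.65 and 2.93. A further probe set that names Vmn2r84, Vmn2r85 and Vmn2r86 together had a larger ratio, 3.34, at 6.97 after papain and 3.64 after PBS. The low ratios of this cluster thus rest on probe sets under background. From Vmn2r53 to Vmn2r56, 1 of 4 was past 2-fold and none over PBS background, with a median of 0.46. Unlike in the first, 2 of the 4 members of this second cluster reached PBS background and 3 reached papain background. Those 2 PBS signals, 5.63 for Vmn2r54 and 5.15 for Vmn2r55, still lay within the range of unrelated genes. That these clusters differ from the others was not tested, since members of a cluster share sequence and each array is a single pool.

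**Figure D3:**
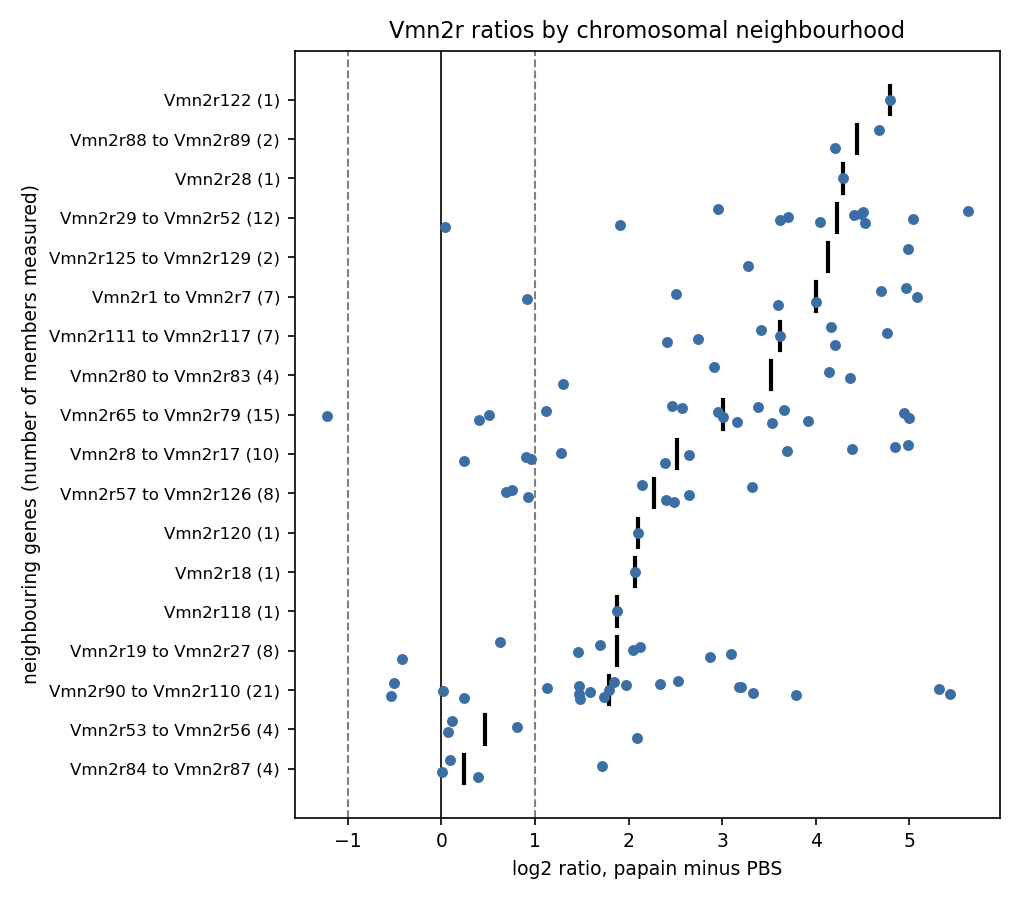
Log2 ratio, papain minus PBS, of each Vmn2r gene (points) by chromosomal neighbourhood, with the median as a bar and dashed lines at 2-fold. Medians run from 0.24 for Vmn2r84 to Vmn2r87 up to 4.79 for the single gene Vmn2r122, and the large clusters hold both high and near-zero ratios.

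Within clusters, receptors with nearly the same sequence ahead of the gene could differ widely. RefSeq windows of 250 bases before the annotated start were found for 104 members. In 91 of the 104 the annotated start is the start codon itself, against 5.83% of all 32851 windows, so the place where transcription begins may lie farther upstream and these windows need not be promoters. Across all 5356 pairs of members the windows had a median identity of 52.4%, and the ratios differed by a median of 1.69. In the 70 pairs with at least 90% identity, 68 of them within 1 neighbourhood, the median difference was 0.80. Such pairs share clusters and also probe sequence, so this is a description without a test. Still, 26 of the 70 pairs differed by 1 or more.

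The pairs below were picked as the 3 with the largest difference of ratios among the 70, and are shown because 1 receptor of each had a high papain signal and its close relative a low one. Bases in capitals differ between the 2 sequences of a pair or have no counterpart in the other, and all other bases are shared. The sequences are those of RefSeq build GRCm38.p6, 5′ to 3′ on the strand of the gene and ending at the base before the start codon. Vmn2r51 lies at chr7:10105660-10105909 on the minus strand and Vmn2r30 at chr7:7337494-7337743 on the minus strand. These 2 windows, 94.1% identical, have 7 substitutions and 8 bases without a counterpart.
Vmn2r51: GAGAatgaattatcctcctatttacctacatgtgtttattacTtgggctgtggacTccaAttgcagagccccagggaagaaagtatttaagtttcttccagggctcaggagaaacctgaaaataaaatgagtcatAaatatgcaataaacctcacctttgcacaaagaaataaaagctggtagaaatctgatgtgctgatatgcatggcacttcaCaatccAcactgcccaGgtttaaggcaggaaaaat
Vmn2r30: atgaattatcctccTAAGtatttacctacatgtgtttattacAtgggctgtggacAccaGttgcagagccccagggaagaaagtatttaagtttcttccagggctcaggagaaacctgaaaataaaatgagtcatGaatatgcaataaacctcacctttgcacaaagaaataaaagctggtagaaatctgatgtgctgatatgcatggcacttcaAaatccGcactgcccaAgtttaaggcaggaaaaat
Vmn2r51 read 8.21 after papain and 2.59 after PBS, while Vmn2r30 on its own probe set read 4.13 and 2.22, under background in both arrays. Probe sets that name Vmn2r30 together with other genes, in part with Vmn2r51, had ratios from 4.24 to 4.87. Their signal may come from those genes. Vmn2r69 lies at chr7:85415677-85415926 on the minus strand and Vmn2r71 at chr7:85615212-85615461 on the plus strand, with 90.9% identity, 19 substitutions and 4 bases without a counterpart.
Vmn2r69: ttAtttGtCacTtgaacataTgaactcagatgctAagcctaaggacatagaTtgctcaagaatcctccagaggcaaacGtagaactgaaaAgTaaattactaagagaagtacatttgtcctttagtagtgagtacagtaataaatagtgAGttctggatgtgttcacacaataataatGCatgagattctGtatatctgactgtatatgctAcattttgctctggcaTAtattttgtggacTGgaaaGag
Vmn2r71: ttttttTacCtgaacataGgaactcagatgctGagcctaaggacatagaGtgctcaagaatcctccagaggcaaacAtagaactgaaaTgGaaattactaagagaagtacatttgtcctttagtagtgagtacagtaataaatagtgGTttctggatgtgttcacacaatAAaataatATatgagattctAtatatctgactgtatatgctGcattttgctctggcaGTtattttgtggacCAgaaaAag
Vmn2r69 read 7.68 and 2.69, while Vmn2r71 read 2.59 and 3.81, under background in both arrays. Vmn2r9 lies at chr5:108852511-108852760 and Vmn2r11 at chr5:109059453-109059702, both on the minus strand, with 93.6% identity, 14 substitutions and 2 bases without a counterpart.
Vmn2r9: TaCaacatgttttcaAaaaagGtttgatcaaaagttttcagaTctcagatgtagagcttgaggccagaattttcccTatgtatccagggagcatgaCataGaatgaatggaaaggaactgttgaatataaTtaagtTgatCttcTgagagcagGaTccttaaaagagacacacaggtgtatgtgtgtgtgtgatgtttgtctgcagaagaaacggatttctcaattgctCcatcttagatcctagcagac
Vmn2r11: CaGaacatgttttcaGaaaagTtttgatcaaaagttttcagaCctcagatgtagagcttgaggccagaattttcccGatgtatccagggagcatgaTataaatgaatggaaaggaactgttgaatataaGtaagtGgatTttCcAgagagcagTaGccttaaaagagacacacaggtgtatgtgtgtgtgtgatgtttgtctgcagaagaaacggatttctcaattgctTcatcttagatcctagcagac
Vmn2r9 read 8.27 and 3.28, at least 9.21-fold over PBS background, and Vmn2r11 read 2.93 and 2.69. In all 3 pairs the PBS signals of both receptors were under background level and the papain signals differed.

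**Figure D4:**
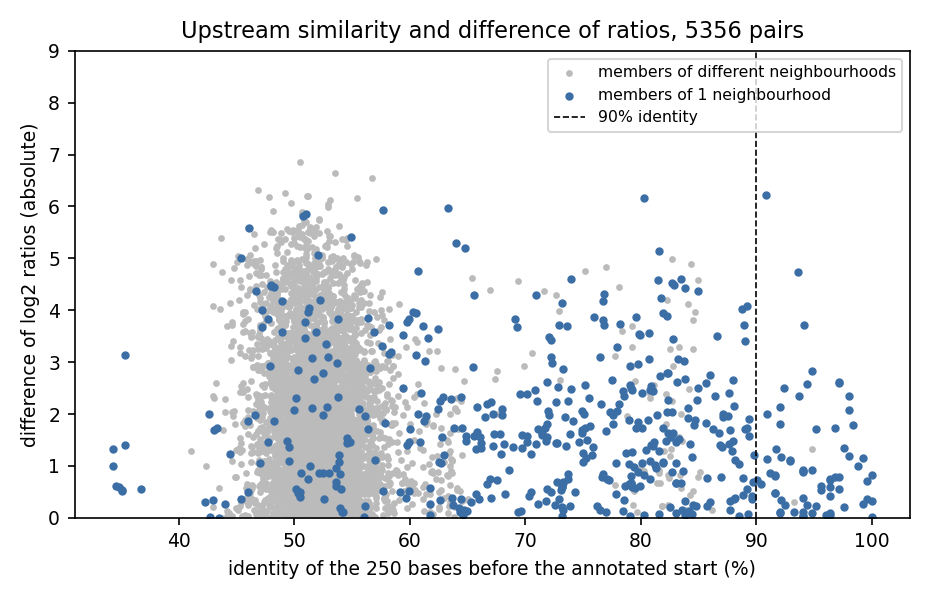
Identity (%) of the 250 bases before the annotated start against the absolute difference of log2 ratios for 5356 pairs of Vmn2r genes, coloured by whether the pair shares a neighbourhood. Pairs past 90% identity have a median difference of 0.80 and reach 6.22, and most of these differences rest on PBS signals under background.

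The same windows were searched on both strands for 4 motifs. Their median GC content was 39.0%, between 26.8% and 60.8%, below the 52.4% of all RefSeq windows of this length. The homeodomain core TAATTA was found in 19 of 104 members, 18.3%, and in 4.84% of all windows. The TATA box TATAAA was found in 25 members, 24.0%, and in 12.4% of all windows. Both are motifs of A and T alone. The site of the O/E (Ebf) factors of sensory neurons was in none of the 104 and in 0.779% of all windows. The AP-2 site GCCNNNGGC, the motif of the family of the basal neuron factor Tfap2e, was in 8 members, 7.69%, and in 13.7% of all windows. The 8 members with the AP-2 letters had a median ratio of 4.10 and the others 2.44, and the 19 members with TAATTA had 1.47 against 2.95 without it. Related members share these windows, so the counts are not independent and were not tested.

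Other genes of the same neurons mostly lay within 2-fold. Of 6 genes of basal vomeronasal neurons, 5 had ratios above 0, with a median of 0.50, and 1 was past 2-fold. That gene was Calr4, a calreticulin of these neurons, at 7.94 after papain and 4.59 after PBS, at least 7.33-fold over PBS background. Tfap2e, the AP-2 factor of basal neurons, read 5.96 and 5.15, a ratio of 0.81. Gnao1, which encodes Gαo, read 9.52 and 8.96, a ratio of 0.56. Kirrel3, an axon adhesion molecule of these cells, had 0.43, Robo2, an axon guidance receptor, 0.17, and Bcl11b, a transcription factor of basal neurons, -0.04.

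Genes of apical vomeronasal neurons, which make family 1 receptors, showed no common direction. Of the 6, 2 had ratios above 0, and they ran from Pde4a at -0.15 to Meis2 at 0.29 with a median of -0.03. All 6 were above background in both arrays, and Gnai2, the apical G protein subunit, read 10.24 and 10.15. Several genes of these 2 lists are also active in olfactory and other neurons, so they do not report the vomeronasal organ alone.

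None of 12 transduction genes reached 2-fold, and their median was 0.11. Within this list the genes split. Gng8, a G protein γ subunit of vomeronasal neurons, had 0.99, at 8.40 and 7.42. The potassium channel genes Kcnn3 and Kcnj3 had 0.88 and 0.82, and Trpc2 had 0.83, at 7.04 and 6.21. Kcnj3 was under background after PBS, at 5.45 and 4.63, which is at least 1.30-fold over PBS background. Slc17a6, the vesicular glutamate transporter, had 0.69, and Gnb1, a widely expressed G protein β subunit, had 0.19. The chloride channel genes Ano1 and Ano2, picked out with values known, had -0.16 and -0.06.

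The class I genes of the H2-Mv group, which are made by a subset of the neurons with family 2 receptors, had the highest median of the lists besides the receptors. Of 10 genes with B2m included, 7 had signal ratios past 2-fold, against 1.83% of all named genes, and the median was 1.65. Only 2 of the 10 reached background level after PBS. Over PBS background H2-M9, H2-M10.3 and H2-M10.6 stayed under 2-fold, with bounds of 1.765, 1.90 and 1.86. H2-M1 read 7.19 after papain and 3.31 after PBS, at least 4.35-fold over PBS background, and H2-M10.5 read 7.47 and 4.43, at least 5.29-fold. B2m, their widely expressed partner, named after its value was seen, had 0.17. Of 4 formyl peptide receptors measured, Fpr-rs3, a vomeronasal receptor gene, read 6.84 against 4.30, at least 3.42-fold over PBS background, and the others had ratios from 0.41 to 0.91. All 4 were under background after PBS.

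Genes for ligands and their carriers did not follow the receptors. None of 14 exocrine gland-secreting peptide genes, which encode ligands such as ESP1, was past 2-fold, and their median was -0.26. Esp18 read 5.07 after papain and 6.05 after PBS, and Esp8 read 5.78 and 6.59. These 2 were the peptide genes above background in both arrays, and both were lower after papain. Of 5 major urinary protein genes none was past 2-fold, and Mup5, at 11.97 and 11.96, was equal. Lcn3 and Lcn4, lipocalins of glands in the vomeronasal and nasal mucosa, were bright in both arrays at 12.98 and 12.57 and at 13.24 and 12.96. Genes for submandibular gland protein C and haemoglobins, also ligands of receptors named above, were not analysed here.

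The difference did not extend to other class C receptors or to markers of the surrounding epithelium. Of 18 other class C receptor genes, among them the calcium-sensing, taste and metabotropic glutamate receptors, none was past 2-fold, from Gprc5a at -0.73 to Gprc5d at 0.98, and the median was 0.08. Olfactory neuron markers had a median of -0.18 over 8 genes, with Cnga2, the olfactory channel subunit, at -0.57 and the receptor transporter Rtp2 at 0.54. Immature neuron markers had 0.01 over 6, sustentacular cells -0.03 over 4 and basal cells -0.11 over 2. All 5 ciliated cell markers were lower, from -0.61 to -0.32, at signals above background. All 8 olfactory neuron markers and all 4 sustentacular markers read above background in both arrays, so olfactory epithelium was in both pools. The amount of vomeronasal tissue in each pool has no label, and its part in the receptor difference was not tested. In RNA of whole tissue, a larger share of vomeronasal neurons and more receptor RNA per neuron cannot be told apart.

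**Figure D5:**
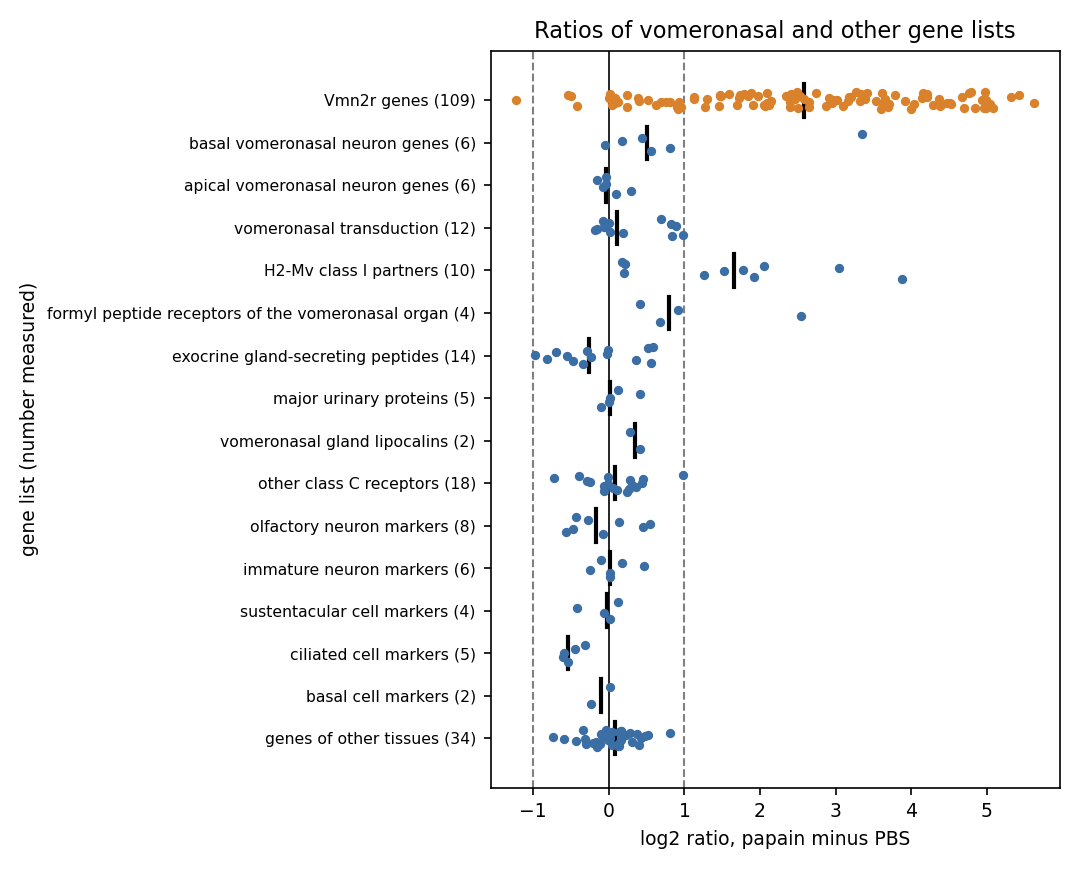
Log2 ratio, papain minus PBS, of each measured gene (points) in the Vmn2r family and in lists of vomeronasal, ligand, receptor and cell type genes, with list medians as bars and dashed lines at 2-fold. The Vmn2r median of 2.58 and the H2-Mv median of 1.65 are the highest, and the other medians lie between -0.54 and 0.80.

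Family 1 receptors of apical neurons were higher in the same array. Of 176 Vmn1r genes 113 had signal ratios past 2-fold, 64.2%, against 1.83% of all named genes. Their median ratio was 1.46 against 2.58 for family 2. As in family 2, few reached background level after PBS, 7.39%, and 51.1% did after papain. Most ratios of both families are therefore no measure of the fold in transcript. Olfactory receptors had a median ratio of -0.11 over 1088 Olfr genes. Of these, 21 had signal ratios past 2-fold upward and 93 downward, against 1.83% and 0.73% of all named genes. Only 28.3% of them reached background level after PBS and 27.1% after papain. The difference between the families was not tested, because each array is 1 pool.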

How the data were processed

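Total RNA of nasal mucosa was hybridised to 1 array for papain and 1 for PBS. The values the authors deposited are taken as log2 signals because of their range. Per the submitters' processing notes, Transcriptome Analysis Console 4.0 was used. How background was corrected and arrays were normalized is not given in the sources used. If the arrays were equalised, each ratio is relative to most other probe sets.

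Of 41345 probe sets, 23521 carried 1 gene symbol in the platform annotation, 1814 several and 16010 none. Of several probe sets for a gene the one with the highest mean was kept, and the log2 ratio was papain minus PBS. With 1 array per group no test or p-value was computed. Background level is the median of 34 measured of 40 listed genes of other tissues. The SD of a log2 ratio between probe sets of a gene was 0.33 over 1073 genes, a probe error and no spread between animals. Members and gene lists were chosen with earlier results of these data known.

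Members named were the 10 highest papain signals, the 10 highest and 5 lowest ratios, the 5 highest PBS signals, Vmn2r1 to Vmn2r7, receptors with known ligands, the extremes of each neighbourhood, and relatives of those whose sequence is shown. Up to 6 genes of the largest ratio in either direction were named per list. Other names are marked as chosen after their values were seen, except identical upstream pairs, cluster labels and genes counted in full. Relatives were to be found by protein identity, and the upstream windows of RefSeq were used instead, aligned globally with a match score of 1. The counting code was tested on simulated data with little noise, which does not show how reliable the counts here are. Alternatives were quantile normalization, a median ratio of 0, loess with a span of 0.3, averaged probe sets, signal floors, signals raised to background, thresholds of 1.5-fold and 3-fold, and leaving out members. Python 3.11.15, numpy 2.4.6, pandas 2.3.3, statsmodels 0.14.6, Biopython 1.88 and matplotlib 3.10.9 were used.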

Additional observations from a re-analysis of the deposited data

Results flagged for a closer look

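Probe sets that list several genes, at least 1 of them a Vmn2r gene, entered no count above, and they carried the same signal. Of 18 such probe sets, 17 were past 2-fold toward papain and none was 2-fold lower, with a median log2 ratio of 4.26. Among all named genes, which leave out probe sets of several genes, 1.83% were at least 2-fold higher and 0.73% lower. Papain signals ran from 5.66 to 11.57 and PBS signals from 2.55 to 6.70, and 13 reached PBS background level. They name 14 Vmn2r genes that have no probe set of their own here, such as Vmn2r21 and Vmn2r121. One probe set lists as many as 17 genes, and 2 of the 18 hold identical values, so they are not independent measurements. The exception was the probe set shared by Vmn2r45, Zfp772 and Gm45351, at 5.66 after papain and 6.12 after PBS. A probe set naming Vmn2r84, Vmn2r85 and Vmn2r86 together read 6.97 and 3.64, a ratio of 3.34, whereas the probe sets of these genes alone had ratios of 0.39, 0.00 and 1.72.

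The pseudogene Vmn2r-ps60 is outside the family count and had a log2 ratio of 1.46, at 4.94 after papain and 3.48 after PBS. The pseudogenes Vmn2r-ps54 and Vmn2r-ps129, picked out with values known, had 0.18 and 0.09, under background in both arrays.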

How the results depend on the processing

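Over 26 alternative values of the median ratio of the family, all were above 0, from 0.92 to 4.15. The lowest, 0.92, came from raising signals under the PBS background level to it, a choice made after seeing the data. It left 53 members at least 2-fold higher and 0 lower, but few members had a PBS signal high enough to be called lower. The other values of the median ran from 2.42 up. Quantile normalization, a median ratio of 0, loess and averaged probe sets each left 86 members at least 2-fold higher and 1 lower. Leaving out 1 neighbourhood at a time gave medians from 2.47 to 2.89. Without the 20 members also named by a several-gene probe set, a choice made after seeing the data, 69 of 89 were at least 2-fold higher and the median was 2.42. Other counts moved where fewer members were counted. Among members with a signal at or above 6.29, the median of all named genes, all 50 were at least 2-fold higher, 0 were lower and the median was 4.15, but most passed through the papain array, where they are high. Among members above background in both arrays, 6 were higher, 0 lower and the median was 3.83. At 3-fold, 0 were lower. With the 95 percentile of other tissue genes as the level, 43 members reached it after papain and 0 after PBS, against 75 and 10. No paired analysis was possible because each group has 1 array.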

Other observations

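Of 2 members with repeated probe sets, both gave the same direction in all of them. The 4 probe sets of Vmn2r113, a gene of the ESP receptor cluster, had ratios of 2.74, 3.62, 3.62 and 3.83, and the middle 2 hold identical values. The 2 probe sets of Vmn2r122 had ratios of 4.79 and 5.30. Of the 3 pairs of members with identical upstream windows, Vmn2r32 and Vmn2r49 had ratios of 4.52 and 4.51, Vmn2r33 and Vmn2r38 had 4.04 and 3.71, and Vmn2r62 and Vmn2r126 had 3.32 and 2.49.

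Across the 109 members, papain and PBS signals correlated with r = 0.63, a description over genes that share the same 2 arrays and probe properties. The ratio correlated with the papain signal at r = 0.87, which its construction favours, and with the PBS signal at r = 0.18. RefSeq lists 126 Vmn2r genes with a number, 123 of them protein-coding, and 17 of the 126 were not members here.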
